A study of Mus musculus with 48 samples.

Results

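The hippocampus of daughters whose dams drank lead was set against that of control daughters by RNA sequencing, 6 animals against 6, which are 12 of the 48 libraries of the experiment. The libraries were chosen by their labels, female with lead (Pb) and female control, and all 12 were used. All animals were CD-1 mice, an outbred stock, sampled at 2 months of age. The dams of the Pb daughters drank water with 100 ppm Pb for 8 weeks, from 2 weeks ahead of mating until the pups were weaned on postnatal day 21, and no metal is given for the control daughters. The daughters were therefore sampled after the exposure had ended. The remaining libraries came from Pb and control sons and from daughters and sons of dams given manganese (Mn, 2 g/L) or both metals (Pb+Mn) over the same period, 6 animals per group. They are used here for the shared estimate of spread and for values beside those of the daughters. The labels number the animals 1 to 6 in each group and do not say which were littermates, and p-values here reflect how far single animals spread, not litters.

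Lead is a divalent metal that passes the placenta, enters milk and the developing brain, and can take the place of calcium and zinc on proteins. It is known for inhibiting delta-aminolevulinate dehydratase in haem synthesis, for blocking N-methyl-D-aspartate (NMDA) receptors and voltage-gated calcium channels, and for disturbing protein kinase C and calmodulin. The hippocampus, which serves learning and spatial memory, passes signals from the granule cells of the dentate gyrus through the pyramidal neurons of CA3 to those of CA1, and these synapses depend on NMDA receptors.

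Total counts averaged 16.1 ± 3.2 M in Pb daughters and 14.3 ± 6.17 M in control daughters (M, 1000000 counts; SD, n = 6 each), and the shallowest of the 12 libraries was control 5 with 8.19 M. Granule cell, CA1, CA2 and CA3 marker genes such as Prox1, Wfs1 and Rgs14 were measured in every library, as the hippocampal label requires. Genes of the Y chromosome were at or near 0 in all 12 libraries. Xist, the long RNA of the inactive X chromosome, stood at 0.0684 CPM in Pb 4 (counts per 1000000 counts of the library, here 1 count in all) and between 18 and 495 CPM in the other 11, and Eif2s3x, an X-linked gene that escapes inactivation, stood at 35.2 CPM in Pb 4 against 54.9 to 60.2 CPM in the other Pb daughters, 44.4 to 62.4 CPM in control daughters and 35.4 to 45.3 CPM in sons. Pb 4 was kept under its label. A further 3 libraries stood apart, Pb 2, control 1 and control 5, and values without one of them stand beside results that they move by much. A transcript length trend, fitted per library over genes, serves as a measure of RNA quality. It is the slope of log2 CPM, centred on each gene's mean over the 48 libraries, against log2 transcript length. It was −0.362 in Pb 2, the second lowest of all 48 libraries, and −0.289 in control 1, against −0.0682 to 0.159 in the other 10. Over the groups the trend averaged −0.00744 ± 0.194 in Pb daughters and −0.0044 ± 0.147 in control daughters, with p = 0.959 by a two-sided exact permutation test (n = 6 each). Control 5 was the library with the highest value in 12.9% of the 16360 genes tested. Fewer cells of a type and less RNA per cell cannot be told apart in bulk tissue.

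No gene passed the test. Of the 16360 genes compared between Pb and control daughters, 0 reached an adjusted p below 0.05 with edgeR's quasi-likelihood test, and the smallest adjusted p was 0.99994. An unadjusted p below 0.05 was reached by 368 genes (2.25% of those tested), where 5% of the genes would be 818, with 163 higher (0.996%) and 205 lower (1.25%) in Pb daughters. DESeq2 gave 0 and 378, limma voom 0 and 303, and limma voom with library weights 0 and 959. The count of 368 was 731 without control 1 and 237 without control 5. Without Pb 4, the library low in Xist, 240 genes were higher and 159 lower at that p. The median standard error (SE) of a log2 fold change was 0.162. Every value below is therefore a description of these 12 libraries, and none is a called change. In 5 genes (0.0306% of those tested) the values of the groups did not overlap, with Pb daughters above in 2 (0.0122%) and below in 3 (0.0183%). Of these, which were picked out after their values were seen, Tmem204 and Pawr, a pro-apoptotic regulator, were lower and Gp1ba, a platelet glycoprotein subunit, was higher in Pb daughters, and the other 2 are an unnamed gene model and an identifier without a symbol. Gp1ba averaged 0.777 ± 0.105 CPM in Pb daughters and 0.357 ± 0.184 CPM in control daughters, and Pawr averaged 1.5 ± 0.258 CPM in Pb daughters and 2.37 ± 0.671 CPM in control daughters (SD, n = 6 each).

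**Figure D1:**
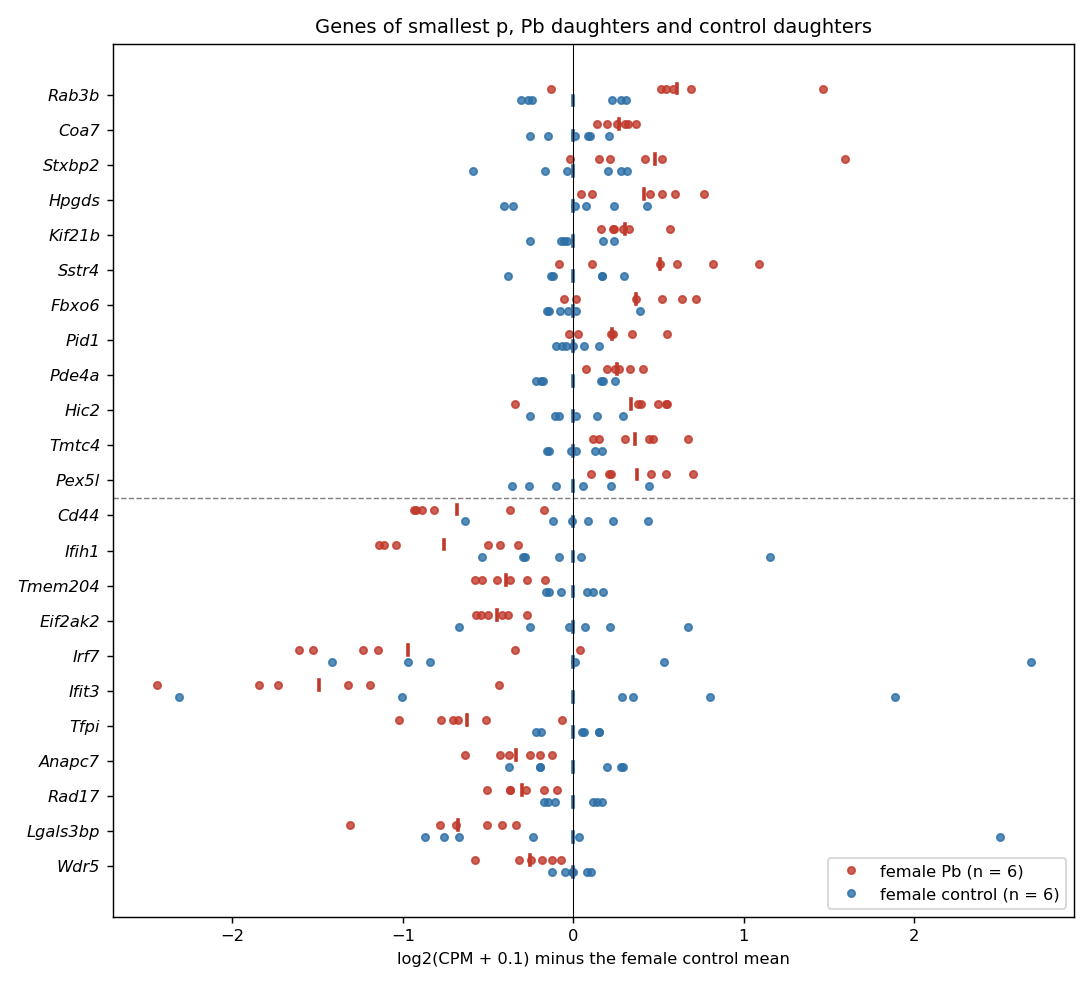
Genes of smallest p, 12 higher (above the dashed line) and 11 of the 12 lower, with each point a library's log2(CPM + 0.1) minus the mean of the control daughters and each tick a group mean (n = 6 each). Tmem204 was the only gene drawn in which the groups did not overlap, and single control values far to the right are seen in Irf7, Lgals3bp and Ifih1.

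Of the 12 lower genes of smallest p, Irf7 and Ifit3 are on the list of interferon response genes, and Ifih1, Eif2ak2 and Lgals3bp are described beside them as genes known to respond to interferon, a grouping made after their values were seen. Cells that sense foreign RNA through receptors such as the Ifih1 product release type I interferons, which act through a complex with Stat2 and Irf9 on a promoter element, the interferon-stimulated response element, to switch on genes such as Ifit1, Ifit3 and Isg15. The promoters of 4 such genes are shown because the element's core letters lie in them. The windows run from 250 bases before to 50 bases after the start of the gene, are taken from RefSeq (GRCm38.p6) and are written 5′ to 3′ on the gene's own strand. Capitals mark the letters GAAA, any 2 bases and GAAA, or on the other strand TTTC, any 2 bases and TTTC, where matches may overlap.
Ifit3, chr19:34583279-34583578, plus strand: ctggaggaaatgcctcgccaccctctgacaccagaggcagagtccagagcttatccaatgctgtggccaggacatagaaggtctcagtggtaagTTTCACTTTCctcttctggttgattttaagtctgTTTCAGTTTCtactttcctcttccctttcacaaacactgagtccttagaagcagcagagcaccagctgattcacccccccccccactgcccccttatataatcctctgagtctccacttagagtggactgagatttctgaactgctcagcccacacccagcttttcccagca
Ifit1, chr19:34640639-34640938, plus strand: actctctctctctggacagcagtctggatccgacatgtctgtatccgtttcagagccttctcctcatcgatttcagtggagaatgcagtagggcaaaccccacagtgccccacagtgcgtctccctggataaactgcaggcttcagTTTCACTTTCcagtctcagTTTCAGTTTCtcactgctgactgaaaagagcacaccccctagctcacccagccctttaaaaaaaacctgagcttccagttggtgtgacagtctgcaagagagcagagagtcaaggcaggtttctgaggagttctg
Isg15, chr4:156200769-156201068, minus strand: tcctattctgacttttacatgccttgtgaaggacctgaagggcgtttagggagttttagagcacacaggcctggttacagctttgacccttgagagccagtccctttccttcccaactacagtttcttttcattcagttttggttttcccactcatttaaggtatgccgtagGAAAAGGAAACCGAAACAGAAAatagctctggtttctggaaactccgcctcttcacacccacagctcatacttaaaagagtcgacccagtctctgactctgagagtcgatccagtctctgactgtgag
Eif2ak2, chr17:78882523-78882822, minus strand: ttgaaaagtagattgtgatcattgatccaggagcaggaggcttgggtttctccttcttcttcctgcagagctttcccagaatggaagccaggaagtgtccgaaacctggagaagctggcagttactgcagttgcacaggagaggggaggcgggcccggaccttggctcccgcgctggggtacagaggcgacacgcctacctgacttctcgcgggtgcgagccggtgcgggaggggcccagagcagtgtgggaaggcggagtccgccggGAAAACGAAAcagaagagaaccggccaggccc
The letters were found in 7 of the 16 tested genes of the interferon list that have a window (43.75%), in 3 of the 10 lower genes of smallest p that have one (Eif2ak2, Ifih1 and Ifit3) and in 0 of the 10 such higher genes. They were found in 3.66% of all tested genes with a window and in 3.44% of all 32841 windows. A match describes the letters only.

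Ifit3, whose product partners the RNA-binding Ifit1, had 0.73, 1.49 and 3.24 CPM as its lowest, median and highest value in Pb daughters, against 0.808, 5.54 and 16.6 CPM in control daughters. Of the control daughters 4 lay above every Pb daughter, control 5 the highest, while the other 2 lay within the Pb range. Its log2 fold change was −1.92 ± 0.56 (SE, unadjusted p = 0.00134). Irf7, the transcription factor that amplifies interferon production, had 0.794, 1.1 and 2.7 CPM in Pb daughters, against 0.921, 2.03 and 17.4 CPM in control daughters. The second highest control daughter had 3.84 CPM, so that control 5 stood alone, and the log2 fold change of −1.64 ± 0.47 was −0.48 without it. Ifih1, the cytosolic sensor of double-stranded RNA, had 1.26, 1.69 and 2.29 CPM in Pb daughters, against 1.97, 2.54 and 6.57 CPM in control daughters, with 3 Pb daughters below every control. Its log2 fold change of −0.86 ± 0.23 was −0.53 without control 5.

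Eif2ak2 encodes PKR, a kinase that double-stranded RNA activates and that halts translation. It had 6.4, 6.91 and 7.88 CPM in Pb daughters, against 5.95, 9.69 and 15.3 CPM in control daughters, so the Pb daughters lay close together inside the lower part of the control range. Its log2 fold change was −0.51 ± 0.14 (SE). Lgals3bp, a secreted galectin-binding glycoprotein that interferon induces, had 6.33, 10.4 and 12.5 CPM in Pb daughters, against 8.61, 11.7 and 90.1 CPM in control daughters. The value of 90.1 CPM was that of control 5, and the log2 fold change of −1.25 ± 0.40 was −0.17 without that library.

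The interferon list of 19 genes had 18 members tested, of which 17 had a negative log2 fold change (47.1% of all genes tested did) and 9 had an unadjusted p below 0.05, all lower (1.25% of all genes). The median over the list was −0.417, against 0.00859 over all genes. Among the 9 were Irf7 and Ifit3 and, named here after their values were seen, Ifit1, Oasl2, Irf9, Usp18, Bst2 and B2m. Ifit1 had 0.562, 1.07 and 1.97 CPM in Pb daughters, against 1.04, 1.72 and 8.87 CPM in control daughters. Bst2, which tethers budding virus to the cell, had 1.46, 2.2 and 3.9 CPM in Pb daughters, against 1.89, 3.22 and 18.2 CPM in control daughters. Beta-2-microglobulin, B2m, the invariant chain of class I antigen presentation, had 54.5, 58.0 and 65.4 CPM in Pb daughters, against 52.3, 61.7 and 100 CPM in control daughters. Isg15, a ubiquitin-like modifier, had 0.73, 1.31 and 1.43 CPM in Pb daughters, against 0.735, 1.08 and 6.22 CPM in control daughters, where control 5 alone stood high. The single member above 0 was Ifit2, with a log2 fold change of 0.19 ± 0.37 (SE).

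Control 5 was the highest of the 12 libraries in 16 of these 18 genes (88.9%), against 12.9% of all genes tested. The mean log2 CPM over the list was 1.68 to 2.23 in Pb daughters and 1.83 to 2.37 in the other 5 control daughters, and 3.7 in control 5, the highest of all 48 libraries before 2.62 in a Pb son. Without control 5, 4 of 18 members were above 0, the median was −0.151 and 1 member kept an unadjusted p below 0.05. Without Pb 2 the median was −0.405, with 8 members lower at that p. In animals outside the comparison the same 18 genes had a positive log2 fold change in 15 cases in Pb sons over control sons (median 0.173) and in 16 cases in Pb+Mn daughters over Mn daughters (median 0.167). The part of control 5's own state in the lower values was not tested beyond leaving that library out.

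**Figure D2:**
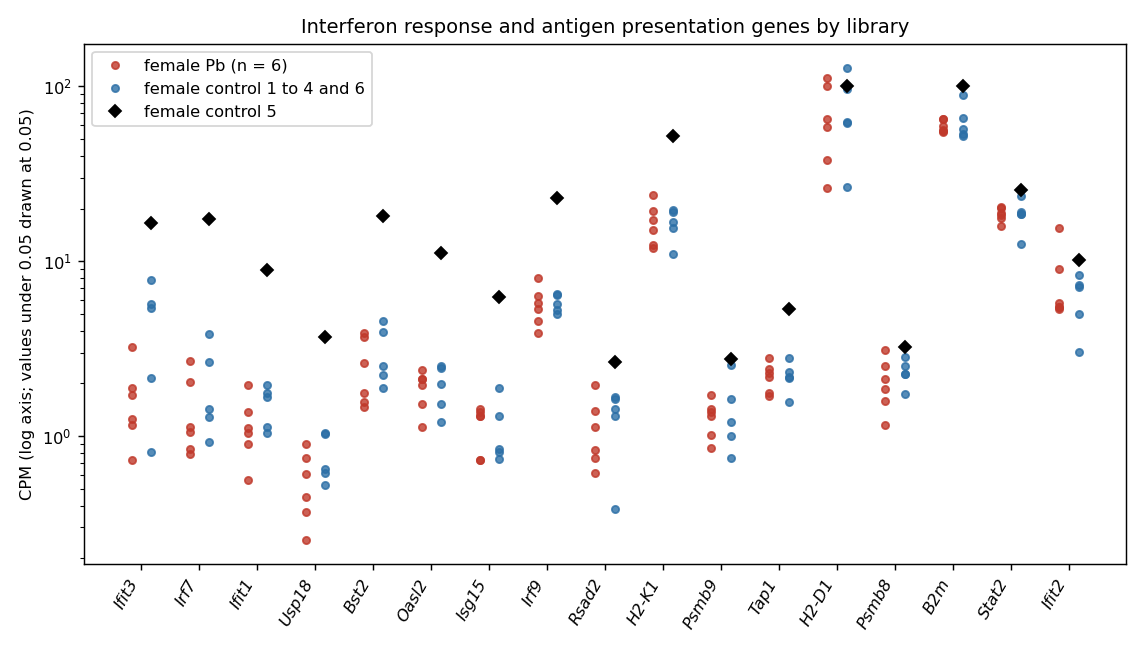
CPM (log axis) of 17 of the 18 tested interferon response and antigen presentation genes in the 12 libraries, ordered by log2 fold change, with Pb daughters left, control daughters right and control 5 as a black diamond. Control 5 is the highest point in 15 of the 17 genes drawn, and the other 5 control daughters overlap the Pb daughters in most genes.

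The other lower genes of smallest p each kept an unadjusted p below 0.05 without control 5. Tmem204, a claudin-like membrane protein of vascular endothelium, had 7.38, 8.3 and 9.85 CPM in Pb daughters, against 9.9, 11.1 and 12.5 CPM in control daughters, without overlap (log2 fold change −0.40 ± 0.11 SE). Tfpi, the inhibitor of tissue factor that restrains coagulation, had 1.85, 2.35 and 3.69 CPM in Pb daughters, against 3.3, 4.01 and 4.3 CPM in control daughters, with 5 of 6 Pb daughters below every control (−0.63 ± 0.19). Cd44, the cell surface receptor for hyaluronan, had 1.65, 1.75 and 2.87 CPM in Pb daughters, against 2.06, 3.34 and 4.44 CPM in control daughters, with 4 Pb daughters below every control. Its log2 fold change was −0.72 ± 0.20, and its p, 0.000675, was the smallest of the 24 genes.

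Rad17, which loads the checkpoint clamp onto damaged DNA, had 8.79, 9.96 and 11.7 CPM in Pb daughters, against 11.1, 12.6 and 14.1 CPM in control daughters (log2 fold change −0.31 ± 0.10). Rad17 had 5 of 6 Pb daughters below every control, and so did Wdr5, a shared subunit of histone methyltransferase complexes, with 16.5, 21.2 and 23.4 CPM in Pb daughters, against 22.6, 24.6 and 26.5 CPM in control daughters (−0.25 ± 0.08). Anapc7, a subunit of the anaphase-promoting complex, had 23.2, 29.1 and 33.1 CPM in Pb daughters, against 27.8, 36.5 and 44.2 CPM in control daughters, where 2 Pb daughters lay below the controls (−0.35 ± 0.11).

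The 12 higher genes of smallest p had log2 fold changes between 0.24 and 0.67, and they are given by their known roles, in an order chosen after their values were seen. Rab3b, a small GTPase of synaptic vesicles, had 14.7, 23.9 and 44.6 CPM in Pb daughters, against 13, 16.2 and 20 CPM in control daughters, and 5 of 6 Pb daughters lay above every control (log2 fold change 0.67 ± 0.19, unadjusted p = 0.000926). Sstr4, a somatostatin receptor of hippocampal neurons, had 14.8, 23.1 and 33.4 CPM in Pb daughters, against 12, 16.0 and 19.3 CPM in control daughters, with 4 above every control (0.55 ± 0.18). Pex5l encodes TRIP8b, an auxiliary subunit of the HCN channels of CA1 dendrites, and had 139, 165 and 211 CPM in Pb daughters, against 101, 128 and 176 CPM in control daughters (0.36 ± 0.13). Rab3b, Sstr4 and Pex5l were each highest in Pb 5.

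Kif21b, a kinesin motor of neuronal microtubules, had 64.0, 68.8 and 84.8 CPM in Pb daughters, against 48, 55.5 and 67.7 CPM in control daughters (0.30 ± 0.10). Pde4a, a phosphodiesterase that degrades cyclic AMP, had 110, 125 and 139 CPM in Pb daughters, against 90.0, 105 and 124 CPM in control daughters, with 4 Pb daughters above the controls (0.25 ± 0.09). Stxbp2, a syntaxin-binding protein of vesicle fusion, had 9.35, 11.8 and 28.8 CPM in Pb daughters, against 6.25, 10 and 11.8 CPM in control daughters. Its highest value was that of Pb 2, and its log2 fold change of 0.56 ± 0.18 was 0.24 without that library.

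Hpgds, the prostaglandin D synthase that in brain marks microglia, had 3.97, 5.44 and 6.63 CPM in Pb daughters, against 2.88, 3.97 and 5.24 CPM in control daughters (0.41 ± 0.13). Coa7, an assembly factor of mitochondrial cytochrome c oxidase, had 13.8, 15.2 and 16.2 CPM in Pb daughters, against 10.5, 12.9 and 14.5 CPM in control daughters (0.26 ± 0.08). Hic2, a zinc finger repressor of transcription, had 3.19, 5.6 and 6.01 CPM in Pb daughters, against 3.4, 3.98 and 5.01 CPM in control daughters, where 5 Pb daughters lay above every control and the other 1 below (0.36 ± 0.13). Tmtc4, an O-mannosyltransferase for cadherins, had a log2 fold change of 0.37 ± 0.13, Fbxo6, an F-box protein that recognises misfolded glycoproteins, of 0.39 ± 0.14, and Pid1, an adaptor that affects insulin signalling, of 0.24 ± 0.08, and Tmtc4 and Pid1 had 4 and Fbxo6 had 3 Pb daughters above every control. Without Pb 2, without Pb 4 or without control 5, each of the 24 genes kept its direction, and without Pb 4 each had an unadjusted p below 0.05. Each also kept it with the 12 libraries fitted alone, where Stxbp2, Hpgds and Hic2 had an unadjusted p above 0.05. With a block for the replicate number 17 of the 24 had an unadjusted p below 0.05, and 20 without Pb 2 and control 5 together. The genes were chosen by p in these same libraries, so a kept direction adds no separate support.

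The 24 genes were then read in animals outside the 2 groups compared, which had entered the fit through its shared estimate of spread. In Pb over control sons 51.1% of all genes were above 0, with 7.65% higher and 3.88% lower at an unadjusted p below 0.05, and in Pb+Mn over Mn daughters 49.5% were above 0, with 1.61% higher and 0.77% lower at that p. Of the 12 higher genes, 10 were also higher in Pb sons than in control sons, 2 of them at an unadjusted p below 0.05, and 5 were higher in Pb+Mn daughters than in Mn daughters, 0 of them at that p. Of the 12 lower genes, 6 were also lower in Pb sons, 2 of them at that p, and 3 were lower in Pb+Mn daughters, 1 of them at that p. Rab3b stood at 0.59 ± 0.19 in sons (unadjusted p = 0.00319) and 0.28 ± 0.19 in Pb+Mn over Mn daughters, beside its 0.67 in Pb daughters. Hpgds stood at 0.27, Anapc7 at −0.21 and Wdr5 at −0.20 in sons, and Tfpi at −0.42 in Pb+Mn over Mn daughters. Of the interferon genes, Irf7 stood at 0.27 in sons and 0.63 in Pb+Mn over Mn daughters, and Ifit3 at −0.24 in sons and 0.26 in Pb+Mn over Mn daughters. Across the 16360 genes, as a description in which genes are not independent, the fold changes of daughters and sons correlated with a Pearson r of 0.37 and a Spearman rho of 0.33. Without Pb 2 of the daughters and Pb 6 of the sons, a setting chosen after seeing the data, these were 0.054 and −0.11. The fold changes of Pb over control daughters and of Pb+Mn over Mn daughters correlated with a Pearson r of −0.2 and a Spearman rho of −0.23.

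**Figure D3:**
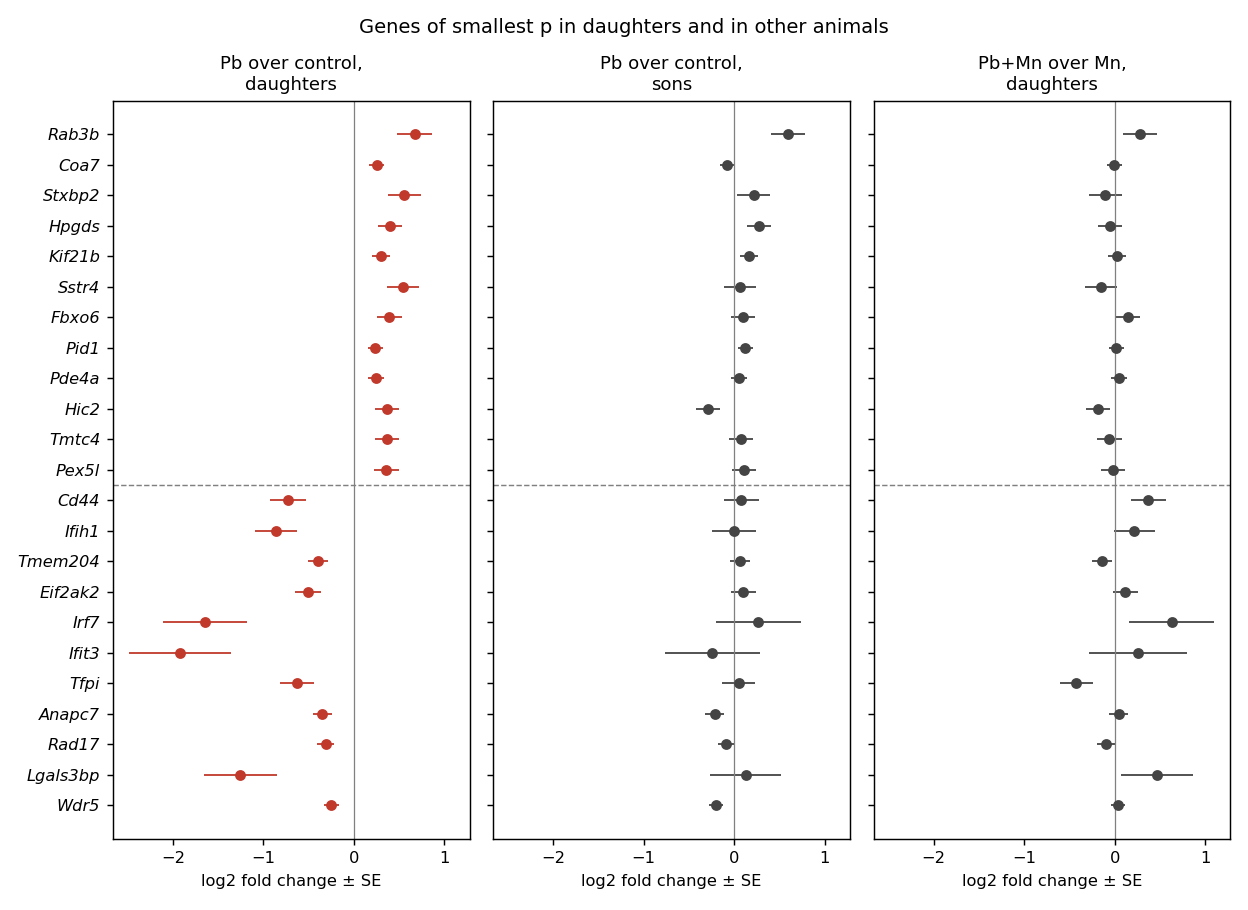
Log2 fold change ± SE of 23 of the 24 genes in Pb over control daughters (left, the comparison that chose them), in Pb over control sons (middle) and in Pb+Mn over Mn daughters (right), on a common axis. Most of the 12 higher genes lie right of 0 in sons. The lower genes lie on both sides of 0 in both sets of other animals, and most lie right of 0 in Pb+Mn over Mn daughters.

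Whether daughters and sons differed was tested directly. The interaction of sex and Pb was called in 0 of 16360 genes with edgeR (smallest adjusted p 0.99561), in 309 at an unadjusted p below 0.05 (1.89%), where 5% of the genes would be 818. This count was 2081 (of 16474 genes tested) without Pb 2 and 194 (of 16493) without Pb 5 of the daughters, and 537, 613 and 504 without Pb 2, Pb 5 and control 4 of the sons, with 0 called in each case. Of these counts only that without Pb 2 of the daughters lay above 818. Among the genes of smallest interaction p, Cdca8, borealin of the chromosomal passenger complex, stood at 0.29 in daughters and −0.98 in sons (difference 1.27 ± 0.34 SE), and Prpf40b, a splicing factor, at 0.09 in daughters and −0.20 in sons (0.29 ± 0.10). Hic2 differed by 0.65 ± 0.19 and Xist by 6.03 ± 1.93, with Xist at 0.50 in daughters and −5.53 in sons. Xist levels were 0 to 24.4 CPM among all sons, with a median of 0. They averaged 4.09 ± 9.97 CPM in control sons and 0.072 ± 0.125 CPM in Pb sons (SD, n = 6 each). The SD of the control sons thus exceeded their mean, and the Xist difference is no measure of a typical animal. On the lower side, Fcgr1, the high-affinity Fc receptor of microglia, stood at −0.25 in daughters and 0.65 in sons (−0.89 ± 0.29), and Bst2 at −1.11 in daughters and 0.73 in sons (−1.85 ± 0.62). The value of Bst2 in daughters was −0.26 without control 5. Tmem204 and Eif2ak2 completed the 4, with differences of −0.46 ± 0.16 and −0.61 ± 0.20.

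The known targets of lead were read by lists. The list members named from here on at an unadjusted p below 0.05, except Lefty1, each lay above it with at least 1 library left out. Among NMDA receptor subunits 4 of 7 tested members had a positive log2 fold change, 0 had an unadjusted p below 0.05, and the median was 0.0475. Grin1, the obligatory subunit, had 189, 435 and 598 CPM in Pb daughters, against 331, 353 and 445 CPM in control daughters (0.15 ± 0.18). Grin2a had 90.9, 280 and 463 CPM in Pb daughters, against 192, 232 and 298 CPM in control daughters (0.30 ± 0.24), and Grin2b had 160, 470 and 771 CPM in Pb daughters, against 197, 404 and 483 CPM in control daughters (0.34 ± 0.25). For all 3 genes the Pb daughters spread wider than the controls in both directions, with Pb 5 highest. Without Pb 2, 6 of the 7 members were above 0 with 2 at an unadjusted p below 0.05 (median 0.109), Grin2a at 0.49 and Grin2b at 0.52, and without Pb 5, 4 were above 0 with 0 at that p (median 0.0116), Grin2a at 0.13 and Grin2b at 0.15. Over all genes tested, 275 of 16474 were higher at that p without Pb 2. In sons the 7 members were all below 0, with a median of −0.259.

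Voltage-gated calcium channels had 11 of 13 members above 0 (median 0.079), and protein kinase C and calmodulin signalling 15 of 18 (median 0.0845), where 52.8% of all genes were above 0. None of these members reached an unadjusted p below 0.05. Cacna1i, a low-voltage-activated channel, had the smallest p of the channels (0.24 ± 0.12, unadjusted p = 0.0567). Without Pb 5 the channel median was −0.0313 and the kinase and calmodulin median 0.00679, and without Pb 2 they were 0.165 and 0.168, with 2 members of each list higher at an unadjusted p below 0.05 (275 of all 16474 genes tested without Pb 2 were). Postsynaptic density genes had 16 of 19 members above 0 (median 0.078), with 3 higher at an unadjusted p below 0.05 (0.996% of all genes were) and 0 without control 5. The 3 were the scaffolds Shank1 (0.31 ± 0.15), Shank2 (0.22 ± 0.10) and, named after its value was seen, Dlgap2 (0.36 ± 0.18). Shank1 had 1200, 1360 and 1720 CPM in Pb daughters, against 723, 1170 and 1490 CPM in control daughters. Homer2, a scaffold of metabotropic glutamate receptors, had 128, 157 and 169 CPM in Pb daughters, against 78.9, 104 and 184 CPM in control daughters (0.36 ± 0.15, unadjusted p = 0.0196), and stood at 0.31 without control 5. Rims1, which organises the release site of the presynaptic terminal, stood at 0.32 ± 0.14 and at 0.11 without Pb 2.

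Genes of haem synthesis and breakdown had 6 of 11 members above 0 and 0 at an unadjusted p below 0.05. Their median was 0.0606, and −0.0951 without Pb 2. Alad, the enzyme that lead inhibits, had 19.7, 27.1 and 33.0 CPM in Pb daughters, against 20.3, 25.4 and 32.3 CPM in control daughters, nearly the same range. Hmox1, the inducible haem oxygenase, had 4.75, 6.45 and 6.88 CPM in Pb daughters, against 5.22, 6.83 and 11.5 CPM in control daughters. Of the metal-binding metallothioneins, Mt1 had 168, 252 and 361 CPM in Pb daughters, against 161, 261 and 374 CPM in control daughters, Mt2 averaged 30.6 ± 12.2 CPM in Pb daughters and 31.8 ± 11 CPM in control daughters, and the neuronal Mt3 stood at a log2 fold change of 0.31 ± 0.22, which was 0.04 without Pb 2. The metallothionein and zinc list had 6 of 13 members above 0. The transporters that carry manganese and other divalent metals differed little, with log2 fold changes of 0.16 ± 0.09 for Slc11a2, −0.06 ± 0.11 for Slc39a14 and 0.06 ± 0.15 for Slc30a10.

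Among stress and activity genes, Jun, an immediate early transcription factor, had 58.5, 81.4 and 107 CPM in Pb daughters, against 89.2, 108 and 125 CPM in control daughters (log2 fold change −0.40 ± 0.16, unadjusted p = 0.0145). It was the only 1 of 22 immediate early genes with an unadjusted p below 0.05, and Fos (−0.06 ± 0.29) and Bdnf (−0.09 ± 0.22) lay near 0. Nfe2l2, which encodes the antioxidant regulator Nrf2, had 16.3, 19.2 and 22.8 CPM in Pb daughters, against 20.6, 23.2 and 26.1 CPM in control daughters (−0.25 ± 0.10, unadjusted p = 0.0138). Its target Srxn1 stood at −0.22 ± 0.10 and its target Gclc at 0.09 ± 0.08, and the antioxidant list of 22 genes had 10 above 0. Herpud1, of the unfolded protein response, stood at −0.24 ± 0.12. Glucocorticoid-responsive genes had 2 of 14 members above 0 (median −0.173) and 0 at an unadjusted p below 0.05. Sgk1, a glucocorticoid-induced kinase, had 72.2, 82.2 and 173 CPM in Pb daughters, against 97.8, 137 and 162 CPM in control daughters. Control 3 was the highest library in 11 of those 14 genes, and the median was −0.00663 without it. Oxtr, the oxytocin receptor, averaged 6.3 ± 1.63 CPM in Pb daughters and 7.08 ± 2.27 CPM in control daughters.

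**Figure D4:**
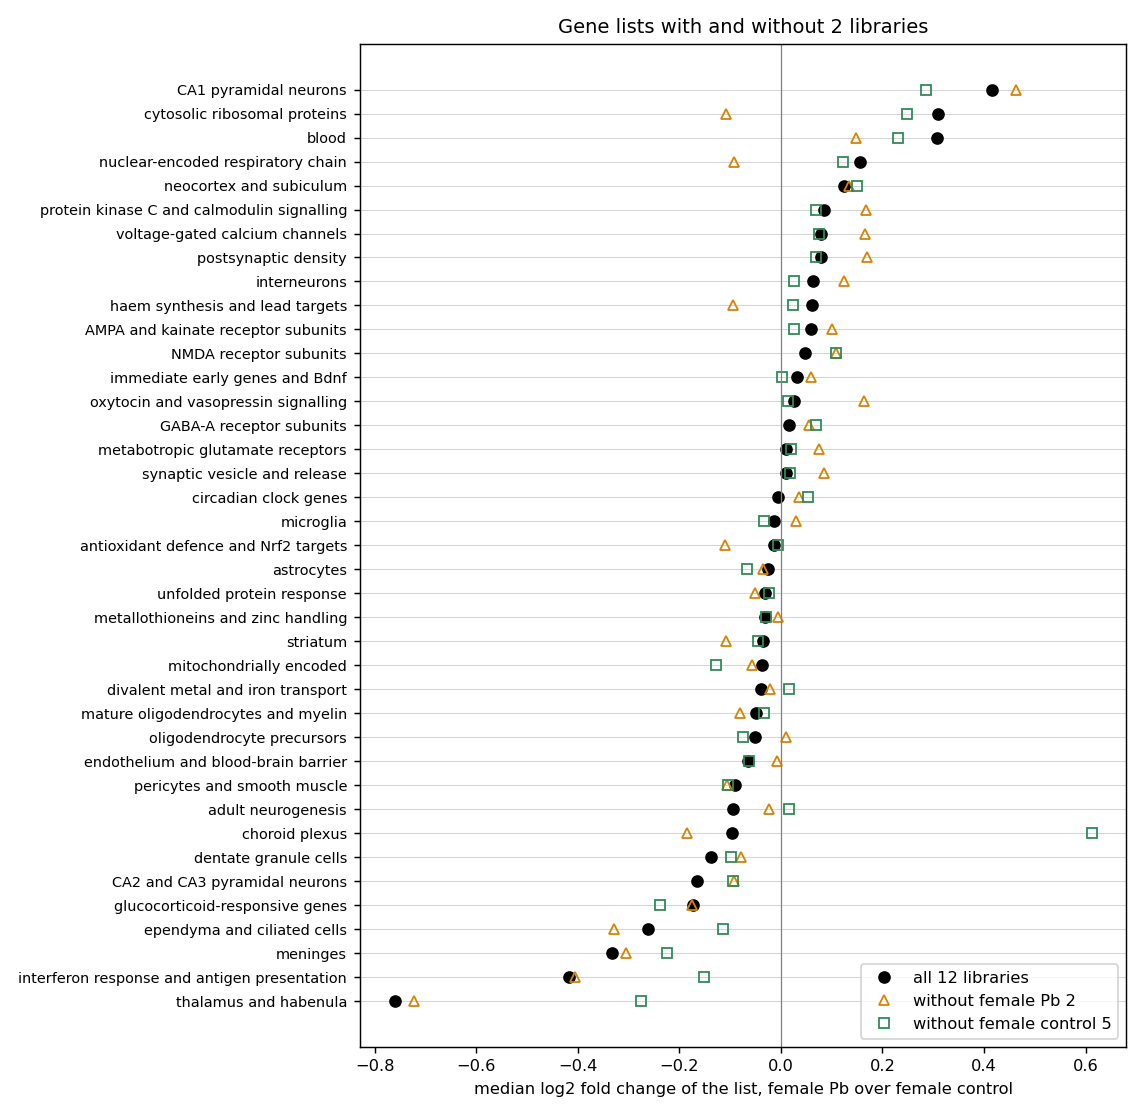
Median log2 fold change of 39 gene lists, Pb over control daughters, with all 12 libraries (black), without Pb 2 (orange triangles) and without control 5 (green squares). The ribosomal and respiratory chain medians cross 0 without Pb 2, and the thalamic, interferon and choroid plexus medians move by the most without control 5.

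Genes of CA1 pyramidal neurons were higher in Pb daughters as a list, with 9 of 10 members above 0, a median of 0.415 and 4 at an unadjusted p below 0.05 (0.996% of all genes were higher at that p). Lefty1, a secreted antagonist of Nodal signalling, had 509 counts over the 6 Pb daughters and 1 count over the 6 control daughters. All its counts in Pb daughters came from 3 libraries, Pb 1 with 8.13 CPM, Pb 3 with 7.09 CPM and Pb 5 with 13 CPM, and the other 3 held none. In the remaining groups more than 1 CPM was found in 4 Pb sons, 0 control sons, 1 Pb+Mn and 2 Mn daughters, and 1 Pb+Mn and 2 Mn sons, each of 6. The members at that p also included, named after their values were seen, Mpped1, with 218, 272 and 300 CPM in Pb daughters, against 93.1, 208 and 277 CPM in control daughters (0.38 ± 0.19), and Wfs1, with 95.4, 289 and 635 CPM in Pb daughters, against 87.2, 199 and 255 CPM in control daughters (0.71 ± 0.35). Pb 5 was the highest library in 8 of the 10 genes. The median was 0.278 without Pb 5 and 0.285 without control 5, each with 1 member at an unadjusted p below 0.05. Wfs1 stood at 0.37 without Pb 5, and Mpped1 at 0.23 without control 5. In Pb over control sons 8 of 10 were above 0 (median 0.179), with 2 at that p. In Pb+Mn over Mn daughters 2 of 10 were above 0 (median −0.161).

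Markers of other hippocampal cells differed less. CA2 and CA3 genes had 2 of 13 members above 0 (median −0.165) and dentate granule cell genes 4 of 13 (median −0.138). The only member of either list at an unadjusted p below 0.05 was Ntng1 of the granule cell list (−0.89 ± 0.43, and −0.53 without control 5). Ntng1 was highest in Pb 6 (48.7 CPM) among Pb daughters and in control 5 (108 CPM) among control daughters. The same libraries were highest in their groups for the summed thalamus and habenula genes given below. Among interneuron genes Pvalb, the parvalbumin of fast-spiking cells, had 27.4, 36.3 and 76.6 CPM in Pb daughters, against 21.7, 29.6 and 41.4 CPM in control daughters (0.41 ± 0.19, and 0.14 without Pb 2), while Htr3a, an ionotropic serotonin receptor of another interneuron class, had 2.46, 2.75 and 3.43 CPM in Pb daughters, against 2.88, 3.54 and 6.55 CPM in control daughters (−0.58 ± 0.24, and −0.40 without control 3). Microglial, astrocyte, oligodendrocyte, precursor, endothelial and pericyte lists had medians between −0.0903 and −0.013 and 0 members at an unadjusted p below 0.05. Gfap, the astrocyte filament that increases in gliosis, had 362, 641 and 890 CPM in Pb daughters, against 475, 670 and 1340 CPM in control daughters.

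Markers of neighbouring tissue differed between single libraries within both groups. Summed over 15 thalamus and habenula genes, Pb 6 stood at 714.6 CPM and the other Pb daughters at 229.2 to 408.1 CPM, while control 4, 5 and 6 stood at 744.4, 1416 and 739.3 CPM and the other control daughters at 266.7 to 278.8 CPM. All 15 thalamus and habenula genes were below 0 (median −0.761), with 0 at an unadjusted p below 0.05. Their mean log2 CPM was 2.65 to 4.96 in Pb daughters and 2.81 to 6.01 in control daughters, and control 5 was highest in all 15. Without it the median was −0.276. Prkcd had 27.5, 41.3 and 110 CPM in Pb daughters, against 29.1, 84.4 and 224 CPM in control daughters, and Rora 31.2, 37.4 and 74.3 CPM in Pb daughters, against 19.5, 67.9 and 139 CPM in control daughters. Choroid plexus genes had 7 of 18 members above 0 (median −0.0967), and 16 of 18 without control 5 (median 0.612). Meningeal genes had 1 of 15 above 0 (median −0.332, and −0.225 without control 5), with Col1a2 at −0.61 ± 0.31. Summed, the meningeal genes were highest in the same 4 libraries, 293.7 CPM in Pb 6 and 271.7, 339.2 and 293.6 CPM in control 4, 5 and 6. In the neocortex and subiculum list Lamp5 (0.36 ± 0.17) and Tshz2 (0.52 ± 0.25) were higher at an unadjusted p below 0.05. Without control 5 no member of that list had such a p, with Lamp5 at 0.29 and Tshz2 at 0.47, and Tshz2 was at 0.28 without Pb 2. Control 5 was thus highest in 16 of 18 interferon genes, in 15 of 15 thalamic genes and in 13 of 18 choroid plexus genes at once. The part of neighbouring tissue in the values of any gene above was not tested.

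Ribosomal protein genes were highest in Pb 2. Cytosolic ribosomal protein genes had 31 of 32 members above 0 (median 0.31) and respiratory chain genes encoded in the nucleus 20 of 26 (median 0.156), with 0 and 1 members at an unadjusted p below 0.05. Rps12, of the small ribosomal subunit, had 131, 200 and 890 CPM in Pb daughters, against 152, 215 and 269 CPM in control daughters, and Ndufb8, of respiratory complex I, had 13.3, 19.2 and 72.7 CPM in Pb daughters, against 16.5, 17.6 and 26.0 CPM in control daughters. The medians of the Pb daughters were thus near those of the controls, and the highest values were those of Pb 2. Pb 2 was the highest library in all 32 ribosomal genes, against 27.4% of all genes tested. Without it 1 of 32 ribosomal members (median −0.108) and 3 of 26 respiratory members (median −0.0928) were above 0. Without control 1, 18 ribosomal members (median 0.464) and 5 respiratory members (median 0.298) were higher at an unadjusted p below 0.05, without Pb 5 the counts were 12 and 6, and with the length trend as covariate 5 and 4. Over all genes tested, 421 of 16521 were higher at that p without control 1 and 321 of 16493 without Pb 5. With the covariate 327 of 16360 were. Without both Pb 2 and control 1, the libraries with the lowest length trends, the ribosomal median was 0.0536. Genes with near-identical copies, as ribosomal protein genes have, are uncertain where reads could be shared.

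**Figure D5:**
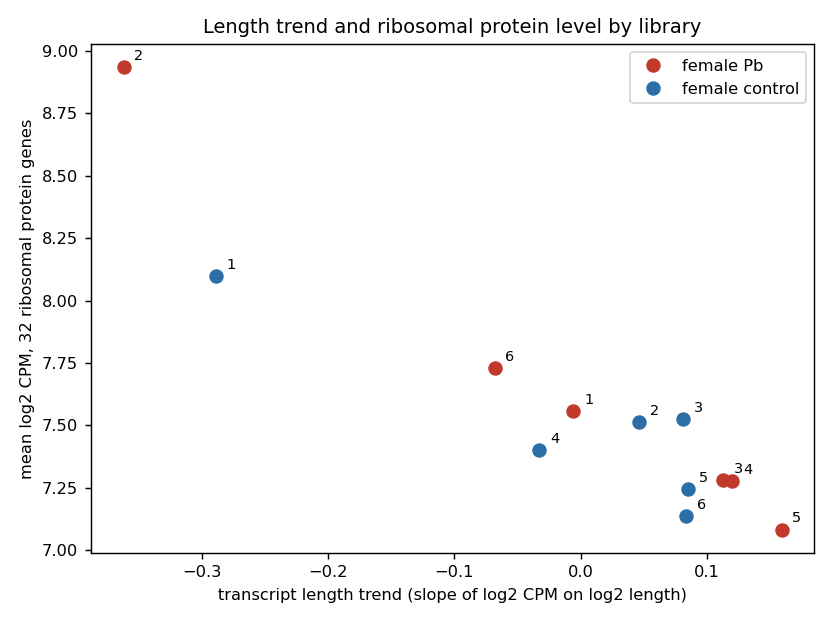
Mean log2 CPM of 32 ribosomal protein genes (vertical) against the transcript length trend (horizontal) in the 12 libraries, numbered within their group. Pb 2, at −0.362 and 8.94, and control 1, at −0.289 and 8.1, stand apart from the other 10 libraries, which mix between the groups.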

How the data were processed

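Poly(A) RNA of the hippocampus was sequenced with 100-base paired reads from 200 ng per library, and the authors deposited 1 table of raw counts per gene for all 48 libraries. Reads were trimmed with Trim Galore 0.6.9, aligned with STAR 2.7.10b to GRCm39 and counted with featureCounts 2.0.6, per the submitters' processing notes. The counts as deposited were tested with edgeR 4.0.16 (R 4.3.3): all 48 libraries entered 1 quasi-likelihood fit with a term per group, TMM scaling and a filter on low counts, and p-values were adjusted by Benjamini-Hochberg over 16360 genes. Fold changes are log2, Pb over control. CPM were computed from the same counts. limma 3.58.1 and DESeq2 1.42.0 were alternatives. Of 57126 identifiers 51884 matched a symbol, and 99.3% of counts lay in genes with one. The length trend used 10206 genes whose mean log2 CPM reached 3. Promoter windows came from RefSeq (GRCm38.p6), whose coordinates are not those of the counts.

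Named genes were the 12 of smallest p in each direction whose mean log2 CPM reached 0. Added to these were 2 members of smallest p per list and 4 genes per direction of the interaction. A fixed set was named whatever its p, with genes tied to lead and others such as Gfap, Oxtr and Xist. Gene models without a name and genes of 1 chromosome were passed over, and some items are not reported here. The libraries, members and lists were chosen with earlier results of these data known. The labels do not tie numbers to litters. The fit was run on simulated counts with known changes in Pb daughters. At an adjusted p below 0.05 it recovered 40.3% of 1.5-fold, 71.6% of 2-fold and 92.4% of 4-fold changes. The simulated counts held no outlying library and no length trend, so these shares cannot say what was missed here. Alternatives were another scaling, no filter, other tools, the length trend as a covariate, a replicate block, the 12 libraries alone, and leaving out libraries.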

Additional observations from a re-analysis of the deposited data

Results flagged for a closer look

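In 28 of 236 group values examined (11.9%), the highest or lowest of 6 libraries stood apart from the other 5 by Dixon's criterion. Chance gives about 5% where values are picked without being seen. The genes examined were those named here, many for their values, and the lists hold some of them. The percentages therefore cannot be compared. Control 5 accounted for 8 of them, control 1 for 7, Pb 2 for 5 and Pb 6 for 4. The causes were not tested.

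Control 5 stood above the other control daughters in interferon-related genes. It had 6.57 CPM of Ifih1, 11.2 CPM of Oasl2, 3.69 CPM of Usp18, 90.1 CPM of Lgals3bp, 23 CPM of Irf9 and 8.87 CPM of Ifit1. Its interferon list stood at a mean log2 CPM of 3.7, against 1.83 to 2.37 in the other control daughters, and its Pawr at 3.69 CPM.

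Pb 2 had 447 CPM of Rims1 and 28.8 CPM of Stxbp2. Its mean log2 CPM was 8.94 for ribosomal protein genes and 8.15 for the nuclear-encoded respiratory chain, above the other Pb daughters, and 4.24 for oligodendrocyte precursor genes, below them. Control 1 had 16.0 CPM of Fbxo6 and 26.0 CPM of Ndufb8, above the other control daughters, and 29.2 CPM of Gclc, below them. Its mean log2 CPM was 5.34 for microglial genes, above the others, and 6.01 for GABA-A receptor subunits and 1.71 for sex-linked genes, below them, with a length trend of −0.289.

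Pb 6 had 48.7 CPM of Ntng1, 74.3 CPM of Rora and 110 CPM of Prkcd, above the other Pb daughters, and 3.19 CPM of Hic2, below them. Pb 4 had 0.0684 CPM of Xist and a mean log2 CPM of 1.05 for sex-linked genes, the lowest of the Pb daughters. Pb 5 had a mean log2 CPM of −0.551 for ependymal genes, against 1.28 to 1.87 in the other Pb daughters. Control 2 held the only count of Lefty1 among control daughters (0.0404 CPM).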

How the results depend on the processing

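Adjusted calls were 0 in every setting run, for the comparison and for the interaction, and the smallest adjusted p of the comparison was 0.7023, without control 1. Of 1762 recomputed values of the 77 genes named, 1714 kept their direction, and each of the 24 genes of smallest p kept it in the 8 settings tabulated for them. A pair of settings was chosen after seeing the data, leaving out Pb 2 with control 1, and Pb 2 with a Pb son.

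Genes at an unadjusted p below 0.05, 368 in all, numbered 1263 with no filter, 618 with the length trend as covariate, 959 with voom library weights, 145 in the 12 libraries alone, 634 without Pb 2 and control 1, and 237 to 731 with single libraries left out. The share of these that was higher was 44.3%, 53.4% with DESeq2 size factors, 60.1% with no filter, 35% with the replicate block, 60.2% without Pb 4, and ran between 34.5%, in the 12 libraries alone, and 68.7%, without Pb 3. The interaction's 309 became 1257 with no filter, 1725 with voom library weights, 2514 without Pb 2 and control 5, 1515 without Pb 2 and control 1, and 194 to 2081 with single libraries left out.

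The replicate block gave 123 genes, and 316 with the length trend. Same-numbered libraries correlated between −0.288 and 0.185 and none correlated best with its own number. So few correlations cannot show whether same-numbered animals shared a litter or a day.

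The length trend difference of −0.00304 was 0.0857 without Pb 2 and control 5, 0.0109 without Pb 2 and control 1, 0.00123 in genes of mean log2 CPM at least 5, and −0.06 to 0.0679 with single libraries left out. The causes of the sign changes that follow were not tested. With voom library weights the log2 fold change was −0.17 for Slc30a10, 0.094 for Bdnf, −0.017 for Gclc, 0.025 for Slc39a14, −0.066 for Ifit2 and −2.24 for Xist. Without Pb 2 and control 5 it was 0.011 for Isg15, 0.10 for Oasl2, −0.040 for Mt3, −0.14 for Mt1, −0.13 for Rps12, 0.070 for Slc39a14, −0.012 for Ndufb8 and −0.70 for Xist. Without Pb 2 and control 1 it was −0.016 for Slc30a10, 0.12 for Bdnf, 0.0071 for Hmox1, 0.012 for Gfap, 0.030 for Slc39a14 and −0.81 for Xist. Xist also stood at −0.53 with the length covariate, −1.38 with voom, −0.38 with the replicate block and −0.54 with the block and the length covariate.

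With single libraries left out the log2 fold change ran over −0.056 to 0.18 for Slc30a10, −0.19 to 0.037 for Bdnf, −0.87 to 0.075 for Isg15, −0.22 to 0.064 for Mt2, −0.062 to 0.21 for Mt1, −0.076 to 0.74 for Rps12, −0.31 to 0.070 for Gfap, −0.35 to 0.12 for Fos, −0.10 to 0.051 for Slc39a14, −0.13 to 0.33 for Ifit2 and −0.60 to 0.79 for Xist. Genes of low counts, such as Lefty1 and Gp1ba, are limited by depth.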
